A study of Homo sapiens with 6 samples.

Results

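The GALNT genes encode the polypeptide N-acetylgalactosaminyltransferases, and 10 of them were examined here for chromatin recovered with the long noncoding RNA (lncRNA) CRLM1: GALNT1, GALNT2, GALNT3, GALNT5, GALNT10, GALNT13, GALNT14, GALNT17, GALNT18 and GALNTL6. A peak was given to a gene when it overlapped the gene body or the 5 kb upstream of the gene start in GENCODE release 44 on GRCh38. The genes are 10 of the 20007 protein-coding genes on chromosomes 1 to 22, X and Y, and they were chosen by name, with earlier results of these data known. Together with their upstream windows they cover 3732 kb, 0.252% of the summed length of all protein-coding genes and their windows.

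The data came from ChIRP-seq (chromatin isolation by RNA purification, read out by sequencing) in HCT116, an established human colorectal carcinoma cell line. In this assay crosslinked chromatin is sheared and an RNA is captured with biotinylated antisense DNA probes, and the DNA that comes along is sequenced. The series held 6 libraries in 3 groups of 2 replicates, namely pull-down with probes against CRLM1 (annotated as LINC01767), pull-down with probes against the bacterial LacZ gene as a negative control, and Input chromatin without pull-down. All 6 libraries came from the same line, the labels give no drug or genetic change, the only treatment they list is the probes, and they name no separate cultures. Peaks had been called for each CRLM1 library against the Input and against the LacZ library of the same number, which gave 4 lists. For replicate 1 they hold 9331 peaks called against Input and 10310 called against LacZ, and for replicate 2 they hold 16777 and 363, respectively. The 2 lists of one replicate share the pull-down library, so only the step from replicate 1 to replicate 2 compares independent pull-downs. The lists give a position and a score for each peak and no read counts, so the sequencing depth is unknown and no test between groups could be made. Intervals below are exact 95% Poisson or Clopper-Pearson binomial intervals on numbers of peaks, and they cover counting error only.

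Mucin-type O-glycosylation begins in the Golgi when a GALNT enzyme moves N-acetylgalactosamine from UDP-GalNAc to a serine or threonine of a protein. Core enzymes, among them the galactosyltransferase C1GALT1, then extend this sugar and sialyltransferases can cap it. The family members share a catalytic fold with a lectin domain but differ in the peptides they use and in the tissues that express them. The mucins of the colon epithelium are heavily O-glycosylated, and truncated O-glycans are a known feature of colorectal and other carcinomas.

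CRLM1 peaks were found in 9 of the 10 GALNT genes when the 4 lists were put together, where 34.8% of all protein-coding genes and 78.8% of the 849 genes of similar length described below had a peak in any list. Against Input, replicate 1 had a peak in 6 of 10 genes, where 13.1% of all protein-coding genes had one. Against LacZ, replicate 1 had a peak in 7 of 10, where 20.2% of all protein-coding genes had one. Replicate 2 had a peak against Input in 7 of 10, where the share of all protein-coding genes was 22.2%. Against LacZ, replicate 2 had a peak in 0 of 10, and 1.02% of all protein-coding genes had one.

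Most of the GALNT genes are long, and a long gene has more room for a peak. Each gene was therefore set beside the 100 protein-coding genes nearest to it in length. If each GALNT gene had a peak in any list as often as its own comparison genes, 8.09 would be counted, beside the 9 seen. In the union of these 849 genes of similar length a peak was present in 49.2%, 57.1%, 64.7% and 5.3% in the same order of lists. List by list, 5.14, 5.94, 6.8 and 0.53 genes with a peak would be counted at the shares of their own comparison genes, beside the 6, 7, 7 and 0 that were seen. The GALNT genes thus carried peaks about as often as genes of their length in every list.

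The number of peaks gave the same picture as the number of genes. The 10 genes held 13 of the peaks called in replicate 1 against Input, or 0.348 per 100 kb (0.185 to 0.596). In replicate 1 against LacZ they held 15, or 0.402 per 100 kb (0.225 to 0.663). For replicate 2 against Input the count was 18, or 0.482 per 100 kb (0.286 to 0.762). At the density of the genes of similar length 13.6, 13.2 and 24.4 peaks would lie in them, so the ratio was 0.957 (0.51 to 1.64), 1.13 (0.634 to 1.87) and 0.739 (0.438 to 1.17). All 3 intervals include 1. Replicate 2 against LacZ had 0 peaks in the GALNT genes, which allows up to 0.0989 per 100 kb by the same interval and, at a floor of 3 peaks, 0.826% of that short list, and 0.568 peaks would lie there at the density of comparison genes.

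**Figure D1:**
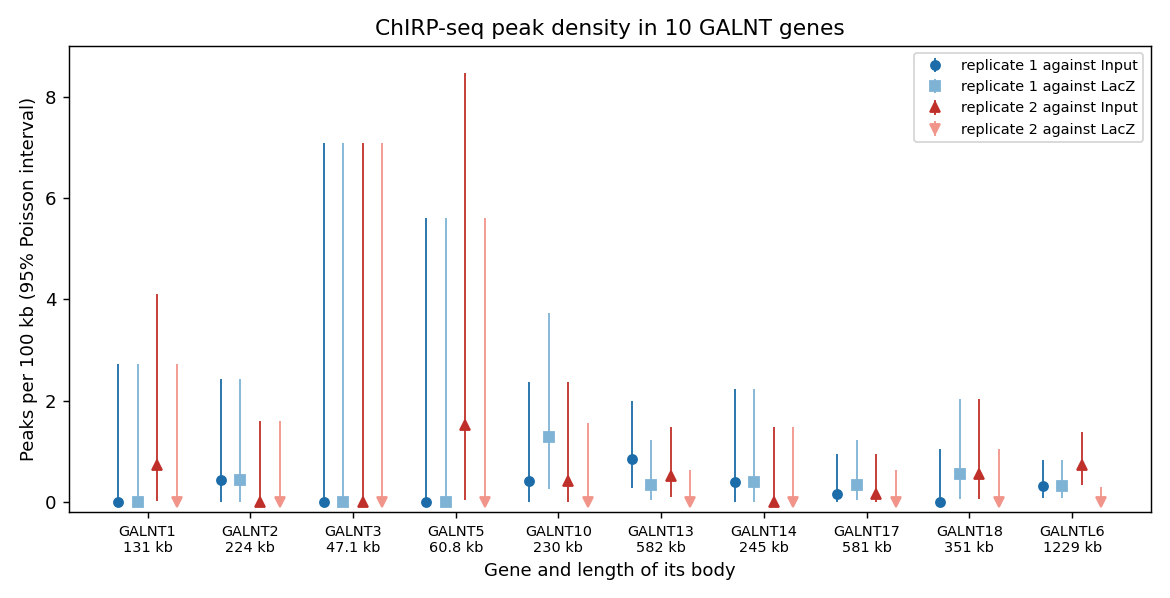
Peaks per 100 kb of gene body plus 5 kb upstream (vertical axis) in each of the 10 GALNT genes (horizontal axis, with the length of the gene body), with 1 symbol for each of the 4 lists and 95% Poisson intervals as bars. GALNT10 in replicate 1 against LacZ, at 1.28, and GALNT5 in replicate 2 against Input, at 1.52, have the highest symbols, and within a list the bars of all genes overlap.

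The 46 entries in the GALNT genes were 37 distinct peaks, since 9 peaks of replicate 1 appeared with the same coordinates in its Input and LacZ lists. Of the 19 distinct peaks of replicate 1, another 4 were called against Input only and 6 against LacZ only. All 18 peaks of replicate 2 were called against Input only. The 4 longest genes, GALNTL6, GALNT13, GALNT17 and GALNT18, held 29 of the 37 (78.4%, 61.8 to 90.2%) and make up 74.1% of the length.

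**Figure D2:**
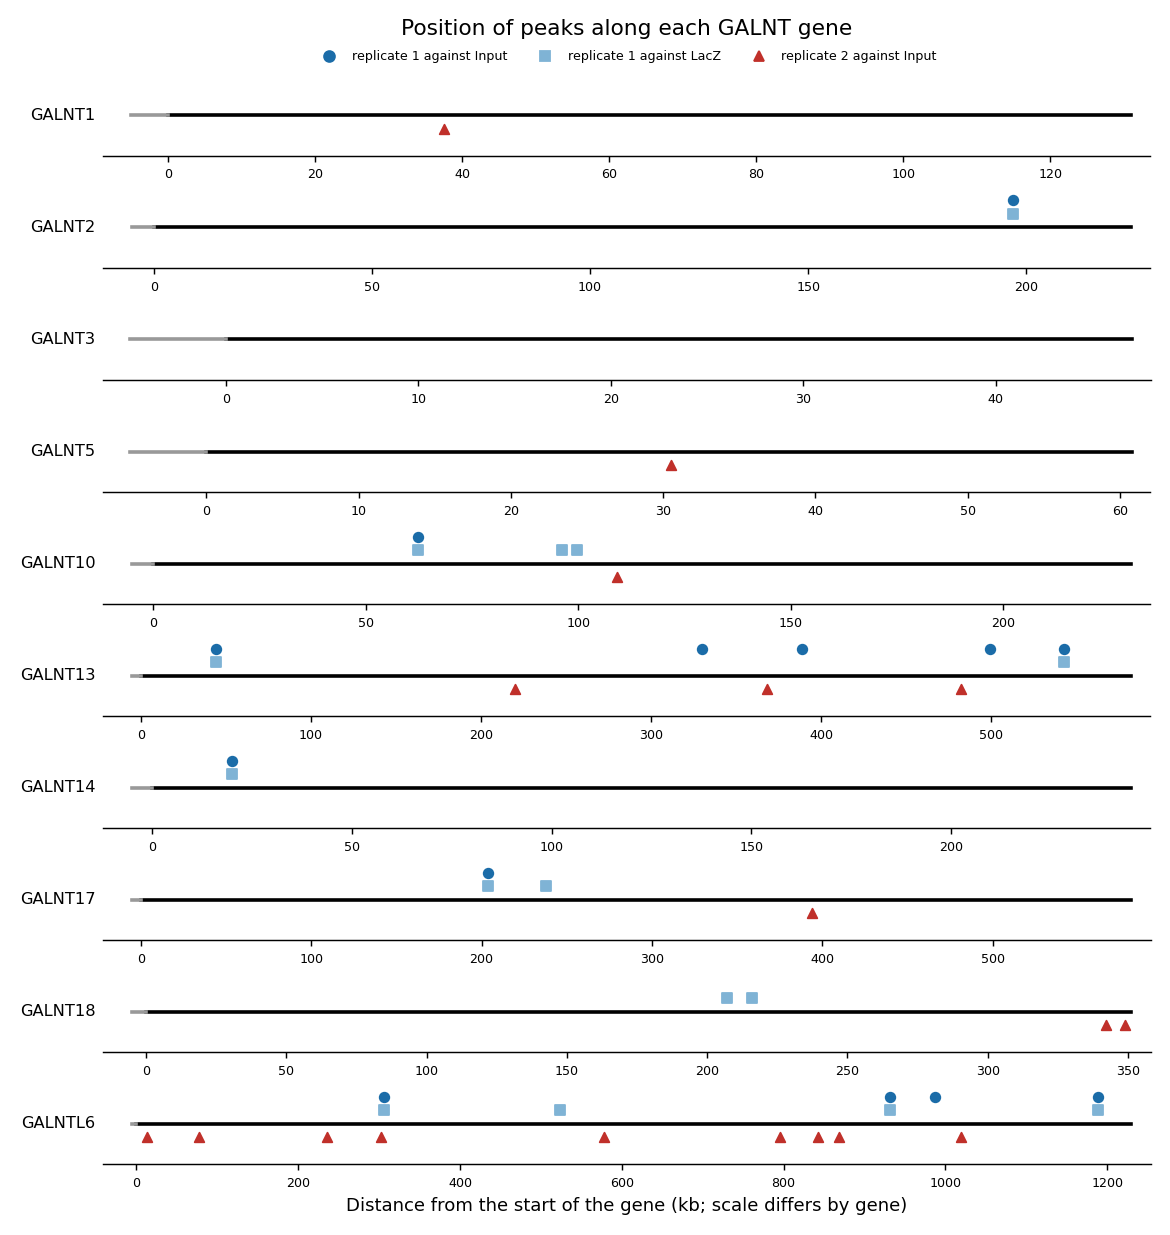
Midpoints of peaks along each GALNT gene, as distance from the gene start in kb in the direction of transcription, with a separate scale for each gene. The black line is the gene body, the grey line the 5 kb upstream, circles and squares stand for replicate 1 with Input and with LacZ as control, and triangles for replicate 2 with Input as control. Each list has its own row, with replicate 1 above the line and replicate 2 below it. No symbol stands above or below a grey line. With separate rows and this scale, the figure does not show whether peaks of the replicates overlap.

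GALNT1 and GALNT2 encode broadly expressed transferases that initiate O-glycans on many proteins. GALNT1 (chr18:35581117-35711834, plus strand, 131 kb) had 1 peak in replicate 2 against Input, with a score of 82.12, and none in the 3 other lists. That peak lay in intron 1, 37.5 kb from the gene start. Of the comparison genes 48% had at least 1 peak in replicate 2 against Input. GALNT2 (chr1:230057990-230282122, plus strand, 224 kb) had the opposite pattern, with a single peak of replicate 1 at chr1:230254558-230254937 and none in replicate 2. It scored 51.44 against Input, just above the floor of the list at 50, and 67.43 against LacZ. The peak lies in intron 10 of the canonical transcript and 0.611 kb upstream of the start of a shorter GALNT2 transcript, ENST00000485438.1.

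GALNT3 (chr2:165747588-165794659, minus strand, 47.1 kb), whose product glycosylates the phosphate-regulating hormone FGF23, had no peak in any list. It is the shortest of the 10 genes. Among its 100 comparison genes 10%, 16%, 28% and 5% had a peak in the 4 lists, and a count of 0 in a gene of this length allows up to 7.08 peaks per 100 kb, so a difference from its comparison genes was not detectable.

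GALNT5 (chr2:157257705-157318491, plus strand, 60.8 kb) encodes a transferase with a long stem region. It had 1 peak, in replicate 2 against Input, and none in either list of replicate 1. With a score of 103.75 this was the highest-scoring GALNT peak of its list, at rank 220 of 16777. The density of 1.52 per 100 kb (0.0385 to 8.47) rests on that 1 peak, and 23% of its comparison genes had at least 1 peak in that list. The peak lies in intron 3, 30.5 kb from the gene start.

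GALNT10 (chr5:154190730-154420984, plus strand, 230 kb) encodes a follow-up enzyme that prefers peptides already carrying N-acetylgalactosamine. Replicate 1 gave 1 peak against Input and 3 against LacZ, and replicate 2 gave 1 against Input. The 3 peaks against LacZ gave 1.28 per 100 kb (0.263 to 3.73), a density that 2% of its comparison genes reached, while 8% had 3 peaks or more. For the same pull-down against Input the density was 0.425, which 28% of comparison genes reached, while 41% had at least 1 peak. For replicate 2 against Input it was 0.425, which 48% reached, while 66% had at least 1 peak. In the 1 Mb on either side of GALNT10 the density in replicate 1 against LacZ was 0.2 per 100 kb (0.0545 to 0.512). One of its peaks, chr5:154286577-154287102 with a score of 55.86, lies 0.631 kb upstream of the start of a shorter transcript, ENST00000519571.1.

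GALNT13 (chr2:153871922-154453979, plus strand, 582 kb) encodes a close relative of the GALNT1 enzyme that is expressed in neurons. Replicate 1 gave 5 peaks against Input and 2 against LacZ, and replicate 2 gave 3 against Input. The 5 peaks gave 0.852 per 100 kb (0.277 to 1.99), which 8% of the comparison genes reached, while 11% had 5 peaks or more, and the density over all 100 was 0.348. Against LacZ the same pull-down gave 0.341, which 45% reached, and replicate 2 gave 0.511, which 65% reached. GALNT13 therefore stood near the top of its comparison genes in 1 of the 3 lists and near their middle or below it in the others. Its peaks were spread over 6 introns and scored from 52.44 to 86.03. The highest, in intron 11, was called against both controls, with 86.03 against Input and 59.8 against LacZ.

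GALNT14 (chr2:30910467-31155202, minus strand, 245 kb), a gene linked in cell lines to O-glycosylation of death receptors, had 1 peak of replicate 1, with 59.5 against Input and 72.92 against LacZ, and none in replicate 2. This peak, in intron 1, lay 3.28 kb downstream of the start of the canonical transcript. It was the 1 peak of the 37 with its midpoint within 5 kb of a canonical start.

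GALNT17 and GALNT18 belong to a vertebrate subfamily of transferases. GALNT17 (chr7:71132144-71713600, plus strand, 581 kb) is as long as GALNT13 but had 1, 2 and 1 peaks in the 3 longer lists. In replicate 2 against Input its density was 0.171 per 100 kb (0.00432 to 0.95) beside 0.643 in its comparison genes, 95% of which were as high or higher. The peak of replicate 1 at chr7:71335507-71335883 covers coding exon 2, at 71335550 to 71335733, and is the 1 peak with its midpoint in an exon of a GALNT gene. Its scores were 53.12 against Input and 53.55 against LacZ.

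GALNT18 (chr11:11270877-11622005, minus strand, 351 kb) had no peak for replicate 1 with Input as control, 2 with LacZ as control, and 2 for replicate 2 with Input as control. The pairs sat in different parts of the gene. Those of replicate 1 lay in intron 3, 207 and 216 kb from the gene start, and scored 115.93 and 71.53. Those of replicate 2 lay in the last intron, intron 10, 342 and 349 kb from the start, and scored 58.07 and 53.58. The score of 115.93 was the highest of any GALNT peak and ranked 79 of 10310. The density of 0.562 per 100 kb (0.068 to 2.03) was the same in both lists. In the 1 Mb on either side it was 0.9 (0.533 to 1.42) in replicate 1 against LacZ and 1 (0.611 to 1.54) in replicate 2 against Input, both within the interval of the gene.

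GALNTL6 (chr4:171812254-173041559, plus strand, 1229 kb), a transferase-like family member, is the longest of the genes and had the most peaks. It held 4, 4 and 9 peaks in the 3 longer lists, or 0.324, 0.324 and 0.729 per 100 kb. At the density of its comparison genes it would hold 5.24, 3.98 and 9.3. Of its 14 distinct peaks 6 lay in intron 5, which is 461 kb long, and 5 in intron 2, which is 415 kb long. The peak chr4:172047921-172048392 of replicate 2, with a score of 66.11, lies 4.29 kb upstream of the start of a shorter transcript, ENST00000508122.5.

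**Figure D3:**
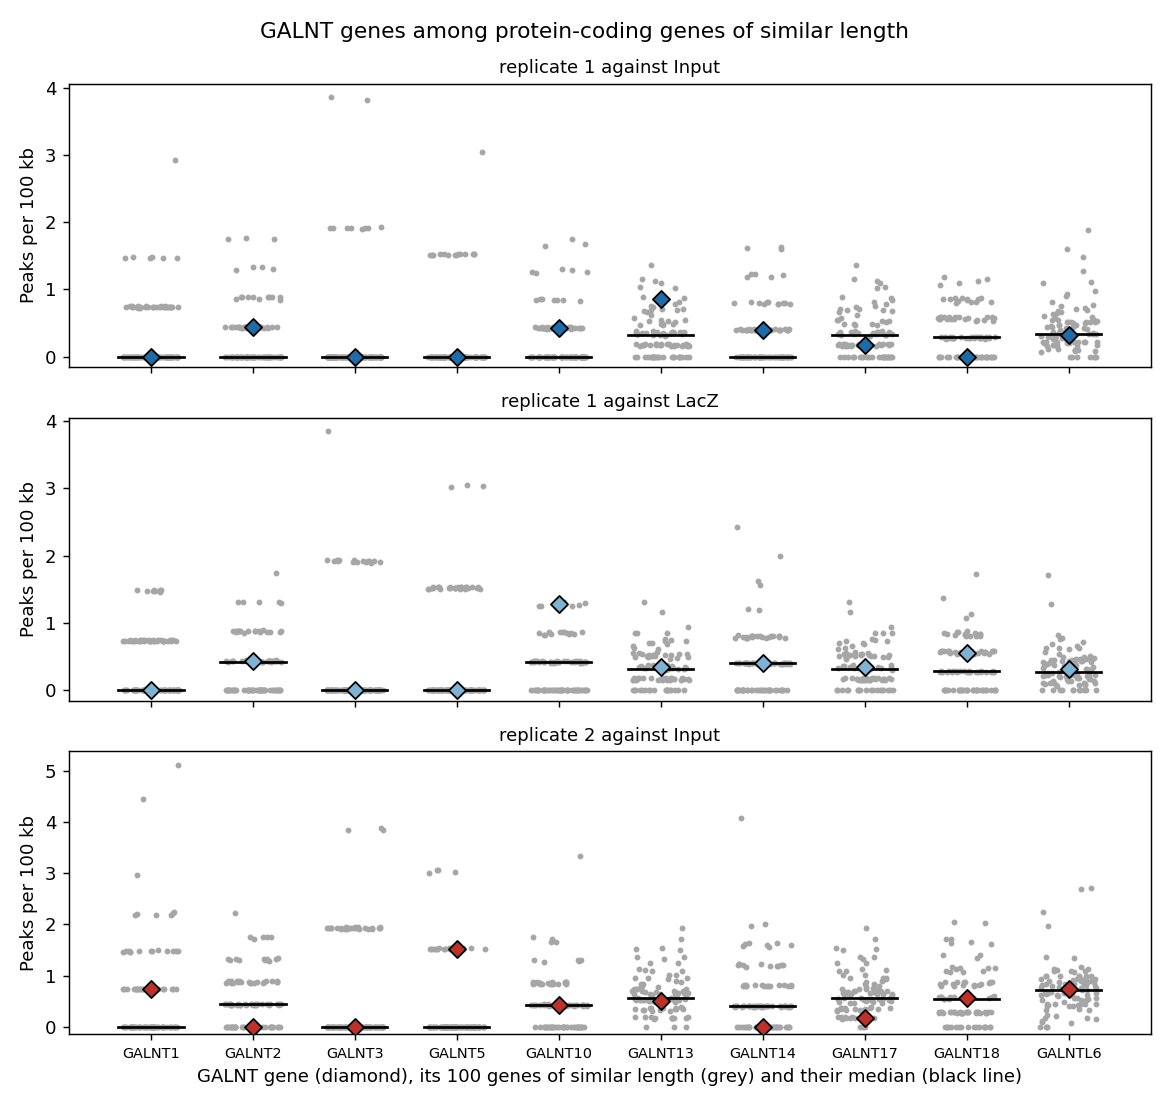
Peaks per 100 kb (vertical axis) in each GALNT gene (diamond) and in its 100 protein-coding genes of similar length (grey points, with a black line at their median), in 3 of the 4 lists. Diamonds lie among the grey points, with GALNT10 in replicate 1 against LacZ and GALNT13 in replicate 1 against Input near the top of theirs and GALNT17 in replicate 2 against Input near the bottom.

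Peaks in the GALNT genes were intronic with few exceptions. Of the 37 distinct peaks, 33 (89.2%, 74.6 to 97%) lay in introns, 3 in the 5 kb upstream of the start of a shorter transcript inside the gene and 1 in a coding exon. Introns make up 90.4% of the length examined, and in the genes of similar length 85.3% of 3517 peaks were intronic. None lay in the 5 kb upstream of the start of any of the 10 genes. When the gene bodies were divided into 5 equal parts from start to end, the parts held 13.5, 16.2, 24.3, 21.6 and 24.3% of the 37 peaks, beside 20, 19.5, 20.5, 20 and 19% of the peaks in genes of similar length. The differences are within the intervals of the GALNT shares. No gathering of peaks near the starts or ends of these genes was detectable with 37 peaks.

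**Figure D4:**
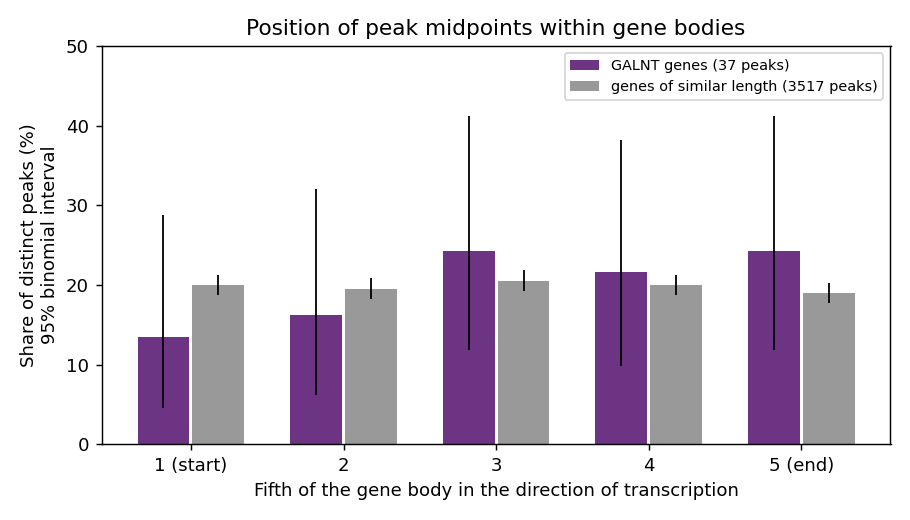
Share of distinct peaks (%, vertical axis) with the midpoint in each of 5 equal parts of the gene body, for the GALNT genes (purple) and the genes of similar length (grey), with 95% binomial intervals as bars. The purple bars run from 13.5% at the start to 24.3% at the end, and their intervals include the grey values.

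Scores of GALNT peaks were spread widely. Their median was just below that of the whole list in replicate 1 against Input. It was above that of the list in replicate 1 against LacZ and in replicate 2 against Input. The score is the value written by the peak caller, its scale is not stated, and the lowest value in the lists is 50. GALNT peaks ranged from 51.44 to 86.03 with a median of 55.5 in replicate 1 against Input, where the median of the whole list was 56.1. In replicate 1 against LacZ they ranged from 50.06 to 115.93 with a median of 60.4, beside 58 in the list. In replicate 2 against Input the range was 50.55 to 103.75 and the median 61.7, beside 57.7 in the list. Of the GALNT peaks 6 of 13, 11 of 15 and 13 of 18 were at or above the median of their list. Scores below 60 were found in 8 of 13, 7 of 15 and 9 of 18, beside 65.6, 58.7 and 59.5% of all peaks. Over the gene of the targeted RNA itself, LINC01767, the same lists held peaks with scores of 1008.27, 1466.89 and 1580.45. GALNT peaks were as wide as others, with a median of 380, 392 and 384 bp beside 389, 395 and 402 bp.

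**Figure D5:**
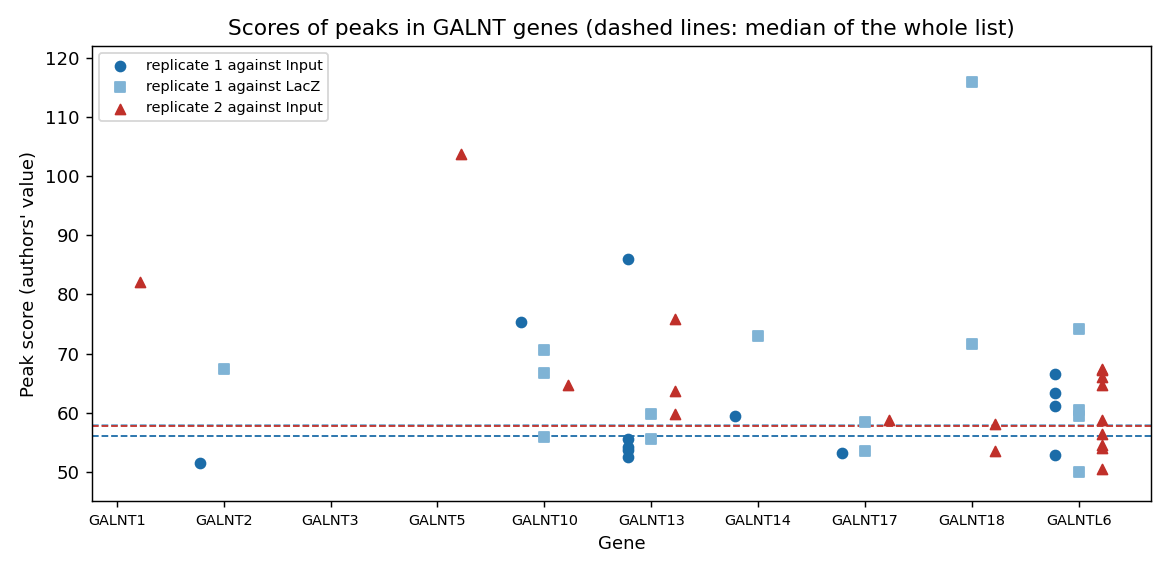
Score of each GALNT peak (vertical axis, the authors' value) by gene (horizontal axis), with circles for replicate 1 and Input, squares for replicate 1 and LacZ, triangles for replicate 2 and Input, and dashed lines at the median of each whole list. Most peaks lie between 50 and 76, and GALNT18 at 115.93, GALNT5 at 103.75, GALNT13 at 86.03 and GALNT1 at 82.12 stand above them.

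No GALNT peak was found in both pull-downs. Against Input, 0 of the 13 peaks of replicate 1 overlapped a peak of replicate 2, and in the whole list 1.73% did. Against LacZ no overlap was possible, since replicate 2 had no GALNT peak in that list. GALNT10, GALNT13, GALNT17 and GALNTL6 carried a peak against Input in both replicates. These are 4 of 10 genes, where 7.9% of all protein-coding genes and 41.8% of genes of similar length did, and 4.46 would be counted at the shares of their own comparison genes. GALNT2 and GALNT14 had peaks in replicate 1 only, GALNT1 and GALNT5 in replicate 2 only, and GALNT18 in both but against different controls. Taking peaks against either control, the nearest peaks of different replicates were 3733 bp apart in GALNTL6. They lay at chr4:172117665-172118056 and chr4:172113610-172113931, both called against Input and both in the 415 kb intron 2. In GALNT10 the nearest were 9180 bp apart, with scores of 70.59 for replicate 1 against LacZ and 64.73 for replicate 2 against Input. In GALNT13 they were 16.2 kb apart, both against Input. In GALNT18 and GALNT17 they were 126 and 156 kb apart, again with LacZ as control for replicate 1 and Input for replicate 2. Against Input alone the nearest were 46405 bp apart in GALNT10 and 189708 bp in GALNT17. Within 10 kb of a replicate 2 peak lay 1 of 13 GALNT peaks against Input (7.69%), beside 16.3% of the whole list and 16.1% in genes of similar length.

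Peaks of the same list sometimes lay close together. In replicate 1 against LacZ this was so for a pair in GALNT10, 3.04 kb apart, and a pair in GALNT18, 7.88 kb apart. In replicate 2 against Input it was so for the pair at the end of GALNT18, 6.12 kb apart. Of the GALNT peaks 0 of 13, 4 of 15 (26.7%) and 2 of 18 (11.1%) had a neighbour of the same list within 10 kb, beside 11, 9.51 and 16.3% of all peaks.

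The sequences under the highest-scoring GALNT peaks of replicate 1 against LacZ and of replicate 2 against Input are shown because they are the GALNT peaks with scores above 100. They are GRCh38 plus-strand sequence of the central 300 bp of the peak, and capitals mark the longest run of bases shared with a LINC01767 transcript on either strand.
GALNT18, chr11:11414735-11415034: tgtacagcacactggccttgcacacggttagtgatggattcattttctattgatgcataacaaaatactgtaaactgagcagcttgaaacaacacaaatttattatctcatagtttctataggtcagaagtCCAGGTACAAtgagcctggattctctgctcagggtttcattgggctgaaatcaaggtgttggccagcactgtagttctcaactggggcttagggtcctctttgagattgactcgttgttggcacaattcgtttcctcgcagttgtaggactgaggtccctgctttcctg
GALNT5, chr2:157288016-157288315: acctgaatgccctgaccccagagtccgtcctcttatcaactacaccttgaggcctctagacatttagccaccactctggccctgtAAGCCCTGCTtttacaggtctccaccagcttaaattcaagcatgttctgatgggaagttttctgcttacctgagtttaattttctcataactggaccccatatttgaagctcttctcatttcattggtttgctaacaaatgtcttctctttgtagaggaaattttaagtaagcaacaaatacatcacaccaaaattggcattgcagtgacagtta

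In both peaks the run shared with a LINC01767 transcript was 10 bases long. A run at least that long was present in 87.1 and 85.8% of all peaks of the same lists. In the GALNT18 peak the marked run lies in the target of probe CRLM1-1. There the 10 bases shared with the transcript and with the probe are the same. The GALNT5 peak also shared 10 bases with probe CRLM1-1. A run of at least 10 bases shared with a probe was present in 25 and 24.6% of all peaks of the same lists. Only the 300 bp centred on each peak were searched for such runs. Over these windows of the GALNT peaks the longest run shared with any of the 9 probes was 10 bases. The median was 9, which is also the median of each list. The longest run shared with a LINC01767 transcript was 11 bases in replicate 1 against Input. It was 14 in replicate 1 against LacZ and 15 in replicate 2 against Input, both in GALNT10. Runs at least as long were present in 46, 11 and 7.08% of all peaks of these lists. The median GC content of the same 300 bp windows was 38, 40 and 35.3% for the GALNT peaks, beside 38, 41.3 and 38.7% in the lists.

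Longer, imperfect resemblance to LINC01767 was present in 4 distinct GALNT peaks, 2 of them in GALNT10 and 1 each in GALNT13 and GALNT17. A search with blastn found it in 1 of 13, 2 of 15 and 2 of 18 peaks, beside 10.2, 15.7 and 12.4% of the lists. All 4 matched positions between 1458 and 1568 of one transcript, ENST00000663880.1, which is 1568 nucleotides long. That is its 3′ end, and the last of the 5 probes found in that transcript ends at position 383. No other GALNT peak, including those of GALNT5 and GALNT18 and all 14 of GALNTL6, had such an alignment at this threshold. Whether the resemblance plays a part in these peaks was not tested.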

How the data were processed

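ChIRP-seq libraries of HCT116 cells were made by the authors from paired reads of 151 nt. Per the labels, reads were trimmed with cutadapt and aligned to GRCh38 with Bowtie2. The deposited peak lists hold a score for each peak, called by the authors with MACS per replicate and control, with no pooling. The score's scale and the caller version were not settled, because the methods name MACS2 while the peak names have an older style. The study's removal of peaks overlapping LacZ signal was not applied here.

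Peaks on chromosomes 1 to 22, X and Y were assigned to a gene by an overlap of at least 1 bp. Peak features were taken at the midpoint over all GENCODE transcripts, in the order untranslated or coding exon, exon of another kind, 5 kb before a transcript start, and intron. For each gene, the 100 protein-coding genes nearest in log length, leaving out the GALNT family, gave the comparison density. Whole peaks were searched with blastn 2.17.0 (word size 11, E value up to 0.01). Exact matches of at least 8 bases to the 9 probes and to LINC01767 transcripts were sought in the 300 bp centred on each peak. The sequences of some peaks are not reported here. The planned share of repeat-masked bases could not be computed from an unmasked genome. Python 3.11.15, pandas 2.3.3 and scipy 1.17.1 were used.

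All 10 members were named. Their peaks were named by position in upstream windows or exons, within 10 kb of a peak of the other replicate, or at the highest score in a list. Peaks resembling LINC01767, and those given for single genes, were added after their values were seen. The members and gene lists were chosen with earlier results of these data known. GALNT5, GALNT13 and GALNT18 were of interest to the study from these same libraries, so their peaks are not independent evidence. Alternatives numbered 25 planned and 3 added after seeing the data.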

Additional observations from a re-analysis of the deposited data

How the results depend on the processing

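Of the values recomputed under the alternatives, 90 moved by less than their counting interval or 1.5 times and 9 by more. The 90 include all values of replicate 2 against LacZ and the overlaps between replicates against LacZ. These had to stay at 0, since that list held 0 GALNT peaks, so they say nothing about stability. Over 10 alternatives, the ratio to genes of similar length ranged from 0.796 to 1.08 for replicate 1 against Input. It ranged from 1.06 to 1.75 for replicate 1 against LacZ and from 0.597 to 1.07 for replicate 2 against Input. The alternatives changed the gene window, the peak filter, the comparison genes or the members. One of them took the 1 Mb on either side of each gene as reference in place of genes of similar length. The highest ratio, 1.75 (0.873 to 3.13), came from peaks at or above the median score. With that filter, which by design drops peaks and so lowers the density, replicate 1 against Input fell to 0.161 peaks per 100 kb. Its intronic share was 100%. With peaks called against both controls, 0 GALNT genes had a peak in replicate 2, as had to be, since its list against LacZ held 0 GALNT peaks. Without GALNTL6, 0% of replicate 2 peaks against Input lay in the part of the gene nearest the start, and with canonical transcripts alone 100% of them were intronic. The mean density against LacZ was 0.201, and leaving out each replicate gave 0 and 0.402, so it rests on replicate 1. Counting peaks within 10 kb as shared gave 1 against Input and 2 against either control, the latter chosen after seeing the data. No paired analysis was possible because the results come from no test. With no read counts, the lists cannot show weak signal below the calling threshold, and GALNT3 and GALNT5 are too short for a density to be read.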

Other observations

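The other 10 GALNT family genes, fixed as a list with earlier results of these data known, are shorter, with a median of 80.1 kb beside 237 kb for the genes above. A peak was present in 1, 3, 4 and 0 of them for replicate 1 with Input and with LacZ as control and for replicate 2 with the same controls, where 13.1, 20.2, 22.2 and 1.02% of all protein-coding genes had one. The density in the first 3 lists was 0.114, 0.343 and 0.686 per 100 kb, beside 0.296, 0.398 and 0.554 over all protein-coding genes. Neither these genes nor those of the next paragraph were set as a whole beside genes of similar length. GALNT8 was the member with a peak against Input in both replicates, 1162 bp apart, at chr12:4826985-4827399 with a score of 65.01 and chr12:4825375-4825822 with a score of 52.25. That is closer than any pair of replicate peaks in the genes above, and the peaks do not overlap. Over all protein-coding genes 7.9% had a peak against Input in both replicates. GALNT8 is 132 kb long, and of the comparison genes of GALNT1, which are 129 to 133 kb long, 19% had one in both. In GALNT11 a peak of replicate 1 against LacZ and a peak of replicate 2 against Input were 4.83 kb apart. GALNT7, another follow-up transferase, lies 127 kb from GALNTL6 on chromosome 4 and had 2 peaks, both in replicate 2 against Input, with scores of 54.19 and 56.08.

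Of 13 genes for later steps of mucin-type O-glycan synthesis, with a median length of 27.2 kb, 1, 2, 1 and 0 had a peak in the 4 lists, beside the same shares of all protein-coding genes. In the lists other than replicate 2 against LacZ the density was 0.078, 0.156 and 0.312 per 100 kb. Each was below that over all protein-coding genes, at 0.296, 0.398 and 0.554. ST6GALNAC3, a sialyltransferase of 560 kb, was the gene with peaks in both replicates against Input, with 1 in replicate 1 and 4 in replicate 2, the nearest 37.4 kb apart. Over all protein-coding genes 7.9% had a peak against Input in both replicates. Of the comparison genes of GALNT13, which are 521 to 651 kb long and include ST6GALNAC3, 76% did. ST6GALNAC1, which makes the sialyl-Tn antigen, had 1 peak, in replicate 1 against LacZ, with a score of 97.7. C1GALT1, the galactosyltransferase that extends the first sugar, and its chaperone C1GALT1C1 had none.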
